A study of Mus musculus with 9 samples.

Results

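Actin filaments, microtubules and vimentin filaments are the main polymers of the cytoskeleton, which gives a cell its shape, moves its contents and pulls on its surroundings. Cytoplasmic actin is made from the beta actin gene Actb and the gamma actin gene Actg1, and microtubules are built from pairs of an alpha and a beta tubulin, each encoded by several genes. Cells hold tubulin messenger RNA in check by a known feedback: when free tubulin is in excess, the first amino acids of a tubulin chain leaving the ribosome are recognised and the messenger RNA is degraded. Vimentin, the product of Vim, forms intermediate filaments in mesenchymal cells and is low in resting hepatocytes, and in liver it is used to mark stellate cells and fibroblasts.

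The 10 genes described are Actb and Actg1, the alpha tubulins Tuba1a, Tuba1b and Tuba1c, the beta tubulins Tubb2a, Tubb2b, Tubb5 and Tubb6, and Vim, out of 24532 genes in the table of liver messenger RNA. They were chosen by these measured values themselves, the read counts scaled to library size across the 3 groups, so their levels and changes are descriptions and carry no test. All 10 passed the filter on low counts, which 14731 genes passed.

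The livers came from wild-type C57BL/6 mice that all received escalating doses of thioacetamide (TAA), a liver toxin that causes scarring, into the abdomen for 10 weeks. The 3 controls (replicates 12, 13 and 14, called TAA) were given saline. The other mice were given rhCYGB, the recombinant form of human cytoglobin, which is a globin, at 2 mg/kg through the tail vein, for the last 2 weeks (replicates 17, 18 and 19) or the last 5 weeks (replicates 23, 27 and 28) of the toxin, and were killed 2 days after its last dose. Livers never exposed to the toxin were not analysed here, so no level below can be set against healthy liver. Whether each numbered sample is its own mouse is not stated in the labels, so the spread between libraries may be technical.

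The libraries held 55655727 to 87289945 estimated reads. All 12 hepatocyte markers were detected, with summed levels of 107070 to 165400 CPM (counts scaled to library size, with edgeR's TMM factors), as the liver label says. The 3 libraries with the highest sums were replicates 17 and 18 (2 weeks) and 27 (5 weeks), at 163670, 165400 and 163690 CPM, and the other 6 lay between 107070 and 123240 CPM. The same 3 libraries had the lowest TMM factors, 0.843, 0.904 and 0.916, against 0.964 to 1.18 in the others. Results earlier obtained from these files placed replicates 17, 18 and 23 furthest apart from the rest.

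The coding sequences show how alike the family members are. The first 30 coding bases of both actin messengers are shown first because the actin proteins differ mainly at their very beginning. Capitals mark the bases that differ, and the sequences are those of GENCODE M21 transcripts on the build GRCm38 (mm10).
Actb: atggaTgaCgaTatcgcTgcGctGgtcGtC
Actg1: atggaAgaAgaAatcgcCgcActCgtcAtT
Counted from 1 at the first base of the start codon, with the Actb base first, the 8 differences are T6A, C9A, T12A, T18C, G21A, G24C, G28A and C30T. Over the whole coding sequence of 1128 bases the genes are 88.7% identical, and over their 3′ untranslated ends 44.9%.

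The first 30 coding bases of the tubulins other than Tubb6 are shown. Their first 4 codons, in capitals, encode the residues that the feedback on tubulin messenger RNA reads.
Tuba1a: ATGCGTGAGTGCatctccatccatgttggc
Tuba1b: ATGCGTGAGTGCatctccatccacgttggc
Tuba1c: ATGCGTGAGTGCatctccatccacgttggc
Tubb2a: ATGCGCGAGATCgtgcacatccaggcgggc
Tubb2b: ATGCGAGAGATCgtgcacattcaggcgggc
Tubb5: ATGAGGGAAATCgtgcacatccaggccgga
The 3 alpha tubulins share all 12 capital bases. The coding sequences of Tuba1a and Tuba1b are 98.3% identical, those of Tuba1b and Tuba1c 97.9%, and those of Tuba1a and Tuba1c 97.1%. Tubb2a and Tubb2b are 96.5% identical, while every other pair of the 4 beta tubulins lies between 80.2% and 84.6%.

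Such likeness bears on the counts, since reads from identical stretches can be given to either gene. Of all 100-base windows of the transcript, 34.9% in Tuba1a, 30.5% in Tuba1b and 46.6% in Tuba1c occur in no other gene's transcript, and 63.1% in Tubb2a and 72.3% in Tubb2b. Actg1 has 48.9% of such windows, the rest being shared mostly with the gene models Gm12715, Gm8399 and Gm16385. Levels of these 6 genes as single genes are therefore uncertain. Actb reaches 98.9%, and Tubb5, Tubb6 and Vim 100%. The windows are those of GENCODE transcripts, some of which are longer than the deposited ones. Lengths were 1803 against 1591 bases for Tuba1a, 1743 against 1562 for Tuba1b and 2182 against 1922 for Tubb2b, but 1920 in both for Actb. The shares in the counted transcripts may therefore differ.

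Stretches before the start of Actg1 and Tubb2a are shown because Actg1 had the lowest log2 change of the 10 genes after 2 weeks of rhCYGB and Tubb2a one of 0.33, although -0.012 with library totals alone. Tubb2b, at 0.38, had no window in the table used. The sequences come from RefSeq's table on GRCm38.p6, run towards the gene, and hold only bases outside the annotated gene. Both genes lie on the minus strand. Capitals mark the CArG box (CC, then 6 of A or T, then GG), the letters bound by serum response factor in many actin genes, the CCAAT box and the TATAAA box.
Actg1 chr11:120348543-120348745: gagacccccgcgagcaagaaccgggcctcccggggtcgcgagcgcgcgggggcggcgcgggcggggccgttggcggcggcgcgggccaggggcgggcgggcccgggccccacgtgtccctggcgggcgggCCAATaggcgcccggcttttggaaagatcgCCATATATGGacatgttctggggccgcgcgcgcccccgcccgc
Tubb2a chr13:34078009-34078258: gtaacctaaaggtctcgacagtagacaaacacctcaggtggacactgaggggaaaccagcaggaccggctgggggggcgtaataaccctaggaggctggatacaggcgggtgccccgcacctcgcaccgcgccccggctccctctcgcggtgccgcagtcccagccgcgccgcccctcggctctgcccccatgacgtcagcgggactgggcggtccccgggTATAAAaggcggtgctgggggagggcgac
Windows of 300 bases around the start were scanned for 7 of the 10 genes. Actb, Tubb2b and Tubb6 were not scanned, so whether they hold any of these motifs is not known here. On both strands, a CArG box was found in 1 of the 7, Actg1, and in 1.63% of 32851 mouse windows. The box of Actg1 lay 90 bases before the RefSeq start at position 120348495. That start is inside the annotated gene, which reaches 120348542, so the stretch shown above ends before it. TATAAA was in 2 of 7, Vim and Tubb2a (13.62% of all windows), CCAAT in 5 of 7 (37.41%) and GGGCGG in 5 of 7 (35.66%), where a pair of GGGCGG matches in Actg1 overlap each other. TGANTCA with C or G at N was in 0 of 7, against 5.2% of all windows. A match describes letters and no binding was measured.

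Actb (gene ID 11461, GRCm38 chromosome 5, 142903115 to 142906754) was the most abundant of the 10 genes. Its level was 898, 780 and 968 CPM in TAA, 919, 865 and 653 CPM after 2 weeks, and 520, 773 and 543 CPM after 5 weeks. Replicates 17 and 18 lay within the TAA range, and all 5-week libraries lay below it, replicate 27 by only a little. The log2 change was -0.12 ± 0.19 (SE, n = 3 per group) at 2 weeks and -0.53 ± 0.19 at 5 weeks against TAA. At 2 weeks the sign depended on replicate 19, since without it the change was 0.016. In bulk tissue, fewer cells of a type and less RNA per cell cannot be told apart, here or below.

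Actb also depended on scaling. In FPKM, which the authors scaled to transcript length and depth, it stood at 509, 473 and 559 in TAA, at 397, 401 and 323 after 2 weeks, and at 261, 363 and 289 after 5 weeks. On that scale no rhCYGB library reached the lowest TAA library at either time. Relative to TMM, library totals alone moved the 2-week median log2 change of all tested genes from -0.029 to -0.36 and the 5-week median from 0.010 to -0.21, so the changes given here are relative to the TMM scale.

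Actg1 (gene ID 11465, chromosome 11, 120345687 to 120348495) was lower in all rhCYGB libraries. It stood at 205, 273 and 306 CPM in TAA, at 151, 161 and 155 CPM after 2 weeks and at 120, 144 and 129 CPM after 5 weeks. The 3 groups did not overlap, and the 2-week libraries were close together, with a coefficient of variation of 3.13% against 19.7% in TAA. Its log2 change was -0.75 ± 0.15 at 2 weeks (1.68-fold lower) and -0.99 ± 0.15 at 5 weeks (1.99-fold lower). Between the rhCYGB courses it was -0.25 ± 0.15. A longer transcript of Actg1, NM_001313923, took 1.78% to 3.69% of the gene's reads.

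The balance of the actin pair differed too. Actb made up 77.1 ± 3.8% of the summed FPKM of both genes in TAA (SD, n = 3), 83.6 ± 2.6% after 2 weeks and 82.0 ± 1.9% after 5 weeks. As a ratio of FPKM, Actb over Actg1 was 4.35, 2.84 and 3.14 in TAA, 6.04, 5.35 and 4.199 after 2 weeks, and 4.30, 5.32 and 4.18 after 5 weeks. Replicate 12 of TAA lay within the range of both rhCYGB groups, so the groups overlapped.

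**Figure D1:**
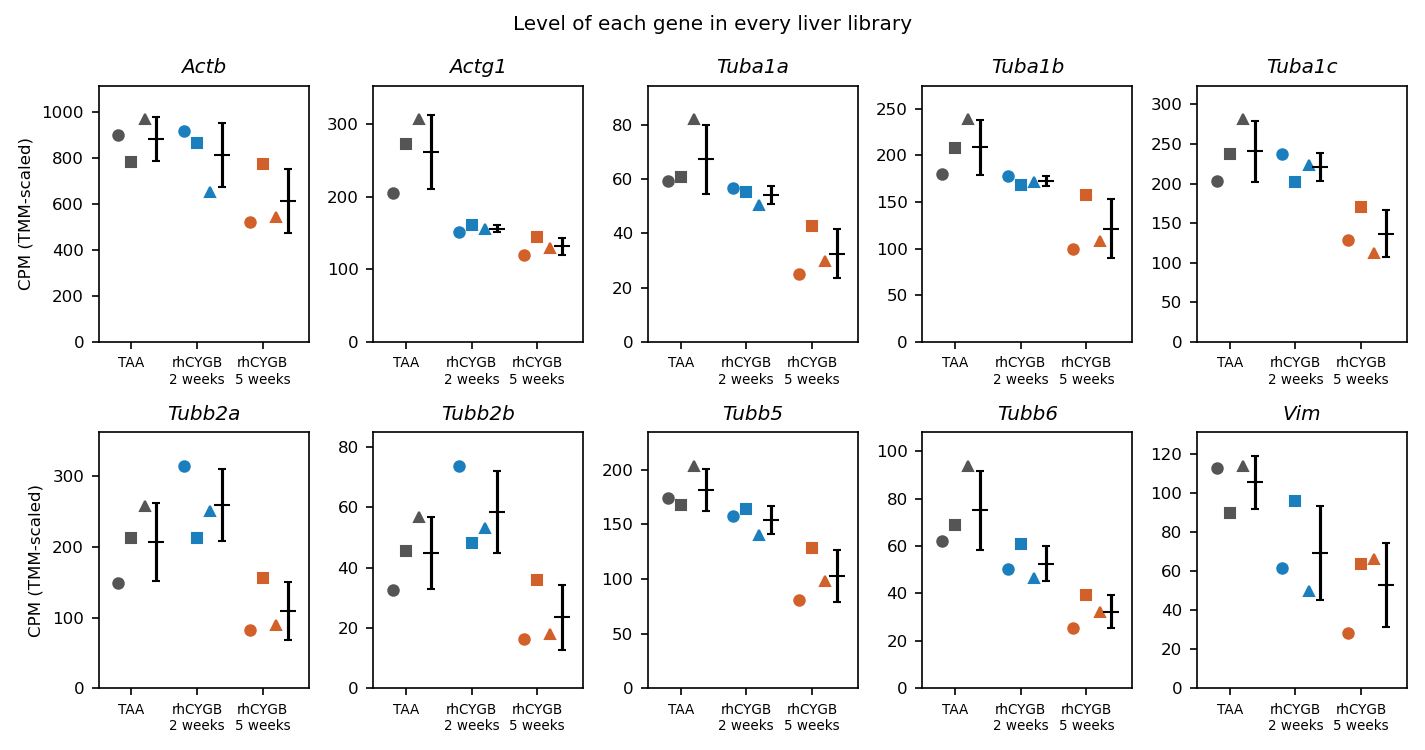
Level of each of the 10 genes in every library, in CPM scaled by TMM, on axes that start at 0. Points are libraries (circle, square and triangle in order of replicate number within a group) and the bars beside them are the mean ± SD (n = 3). The 5-week libraries of Actg1 lie at 120 to 144 CPM against 205 to 306 in TAA, and those of Tubb2a at 82.4 to 157 CPM against 149 to 258.

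The alpha tubulins Tuba1a, Tuba1b and Tuba1c lie within 106.7 kb of chromosome 15. Tuba1a (gene ID 22142, chromosome 15, 98949847 to 98953501) stood at 59.1, 60.9 and 82.0 CPM in TAA, at 56.6, 55.3 and 50.3 CPM after 2 weeks, and at 25.0, 42.6 and 29.8 CPM after 5 weeks. Its 2-week libraries lay just below the lowest TAA library, and its 5-week libraries lay below every other library. Against TAA, its log2 change was -0.32 ± 0.20 at 2 weeks and -1.05 ± 0.20 at 5 weeks (2.07-fold lower).

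Tuba1b (gene ID 22143, chromosome 15, 98931431 to 98934390) stood at 180, 208 and 239 CPM in TAA, at 178, 168 and 172 CPM after 2 weeks, and at 99.5, 157 and 108 CPM after 5 weeks. The 3 groups did not overlap, although replicate 17 came close to replicate 12 and replicate 27 close to the 2-week libraries. Its log2 change was -0.28 ± 0.18 at 2 weeks and -0.78 ± 0.18 at 5 weeks.

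Tuba1c (gene ID 22146, chromosome 15, 99029891 to 99038105) stood at 204, 238 and 281 CPM in TAA, at 237, 202 and 224 CPM after 2 weeks, and at 129, 170 and 112 CPM after 5 weeks. The 2-week libraries overlapped TAA and the 5-week libraries lay below both groups. Its log2 change was -0.12 ± 0.18 at 2 weeks and -0.82 ± 0.18 at 5 weeks.

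Within the alpha family, in FPKM, Tuba1b made up 44.9 ± 0.78% in TAA, 43.1 ± 0.84% after 2 weeks and 46.4 ± 2.0% after 5 weeks (SD, n = 3). Tuba1c made up 40.9%, 43.6% and 41.5%, and Tuba1a 14.2%, 13.3% and 12.1%, in the same order. These differences were small, but some groups did not overlap: at 2 weeks Tuba1b lay at 42.3% to 44.0% against 44.1% to 45.6% in TAA and Tuba1c at 41.8% to 44.5% against 40.4% to 41.2%, and at 5 weeks Tuba1a lay at 10.9% to 12.97% against 13.1% to 14.9%. The family's summed level was 517 ± 80.2 CPM in TAA, 448 ± 23.4 CPM after 2 weeks and 291 ± 68.6 CPM after 5 weeks. How reads were divided between these near copies is not given in the sources used here.

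Among beta tubulins, Tubb2a and its neighbour Tubb2b, 56.1 kb of chromosome 13 from end to end, ran differently from the rest. Both encode class II beta tubulin, which is best known from neurons. Tubb2a (gene ID 22151, chromosome 13, 34074280 to 34078008) stood at 149, 213 and 258 CPM in TAA, at 315, 213 and 251 CPM after 2 weeks, and at 82.4, 157 and 89.2 CPM after 5 weeks. After 2 weeks 1 library was above the TAA range and the others within it, and after 5 weeks replicate 27 lay within the TAA range while 23 and 28 were below it. The log2 change was 0.33 ± 0.28 at 2 weeks and -0.92 ± 0.28 at 5 weeks against TAA. Between the courses, where the groups did not overlap, it was -1.25 ± 0.28 (2.37-fold lower at 5 weeks). The 2-week sign depended on scaling, since with library totals alone the change was -0.012, and its size on single libraries, at 0.17 without replicate 17 and 0.12 without replicate 12.

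Tubb2b (gene ID 73710, chromosome 13, 34127008 to 34130354) stood at 32.6, 45.4 and 56.6 CPM in TAA, at 73.7, 48.3 and 53.2 CPM after 2 weeks, and at 16.4, 36.0 and 17.996 CPM after 5 weeks. High and low libraries were those of Tubb2a. As for Tubb2a, the log2 change of Tubb2b at 2 weeks was above 0 (0.38 ± 0.32, but 0.035 with library totals alone and 0.18 without replicate 17) and at 5 weeks below it, -0.94 ± 0.32, against TAA, and it was -1.32 ± 0.32 between the courses. In FPKM, Tubb2a exceeded Tubb2b by 5.11-fold to 6.00-fold in the 9 libraries, a narrow range for genes whose own levels varied more than that. Their reads share sequence, as given above.

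Tubb5 (gene ID 22154, chromosome 17, 35833920 to 35838301), the broadly used class I beta tubulin, stood at 174, 167 and 203 CPM in TAA, at 158, 164 and 140 CPM after 2 weeks, and at 81.2, 129 and 98.5 CPM after 5 weeks. The groups did not overlap, although replicates 13 and 18 came close to each other. The log2 change was -0.24 ± 0.17 at 2 weeks and -0.82 ± 0.17 at 5 weeks (1.77-fold lower).

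Tubb6 (gene ID 67951), the class V beta tubulin, stood at 62.3, 69.0 and 93.8 CPM in TAA, at 50.4, 60.6 and 46.6 CPM after 2 weeks, and at 25.5, 39.2 and 32.1 CPM after 5 weeks. Again the 3 groups did not overlap. Its log2 change was -0.51 ± 0.20 at 2 weeks and -1.22 ± 0.20 at 5 weeks (2.32-fold lower), the lowest value of the 10 genes at 5 weeks.

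The make-up of the beta family differed at 2 weeks. Tubb2a took 48.4 ± 3.9% of the summed FPKM of the 4 genes in TAA, 57.4 ± 4.6% after 2 weeks and 49.0 ± 3.0% after 5 weeks (SD, n = 3), and Tubb6 took 16.3 ± 0.90%, 10.9 ± 2.4% and 13.7 ± 1.6%. Tubb5 took 26.5%, 21.0% and 28.7%, and Tubb2b 8.78%, 10.7% and 8.63%. The 2-week libraries lay above all TAA libraries for Tubb2a and Tubb2b and below them for Tubb6. At 5 weeks Tubb6 also lay below TAA, but only just, at 11.99% to 15.277% against 15.284% to 16.9%. The family's summed level was 508 ± 98.1 CPM, 524 ± 62.5 CPM and 268 ± 81.9 CPM in TAA, 2 weeks and 5 weeks.

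**Figure D2:**
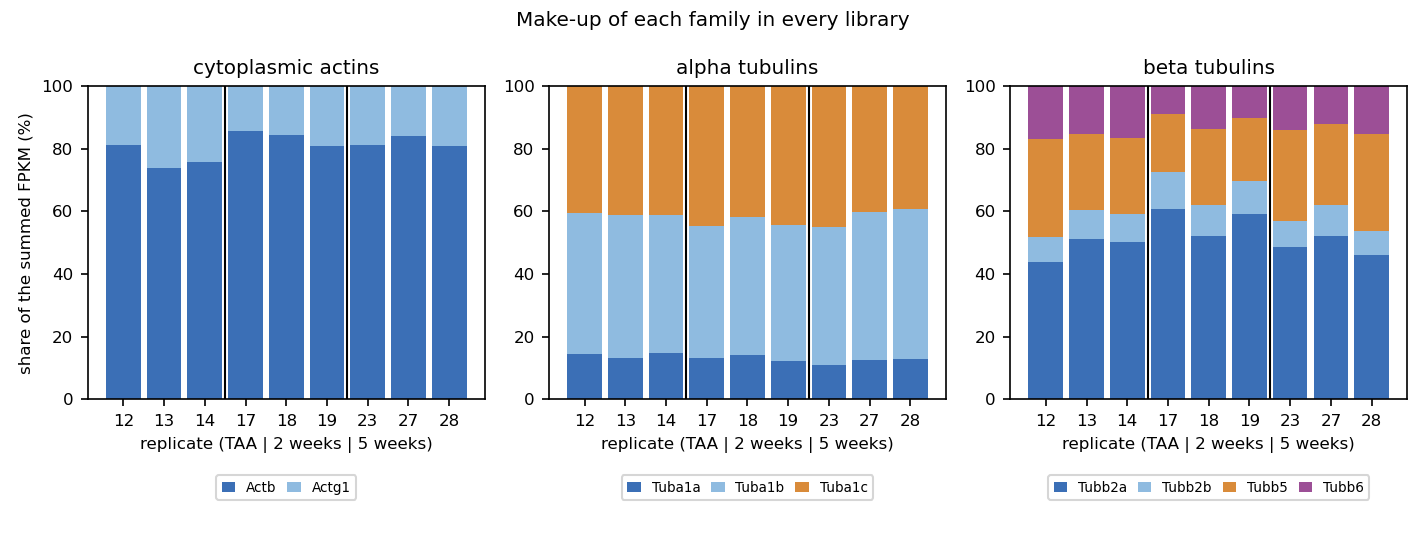
Share of each gene in its family's summed FPKM, in percent, in each of the 9 libraries, with vertical lines between the groups. Tuba1b makes up 42.3% to 47.8% of alpha tubulin in the 9 libraries, and Tubb2a makes up 52.1% to 60.7% of beta tubulin in the 2-week libraries against 43.9% to 51.2% in TAA.

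Vim (gene ID 22352, chromosome 2, 13574311 to 13582826) stood at 113, 89.8 and 114 CPM in TAA, at 61.8, 95.9 and 49.9 CPM after 2 weeks, and at 28.2, 63.8 and 66.4 CPM after 5 weeks. Replicate 18 lay within the TAA range, the other 2-week libraries below it, and all 5-week libraries below it. The log2 change was -0.61 ± 0.33 at 2 weeks, or -0.92 without replicate 18, and -0.998 ± 0.33 at 5 weeks (1.997-fold lower). Between the courses the groups overlapped and the change was -0.39 ± 0.33, which became 0.38 when replicates 17, 18 and 23 were all left out. The same omission turned the change of Actb between the courses to 0.012.

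Per length, Actb stood highest in all groups, at 514 ± 43.3 FPKM in TAA, 373 ± 43.5 FPKM after 2 weeks and 304 ± 52.7 FPKM after 5 weeks (SD, n = 3). Actg1, Tuba1b, Tubb2a and Tuba1c followed in TAA at 154, 150, 144 and 137 FPKM, and their libraries overlapped. Below them came Tubb5 at 76.8 FPKM and Vim at 64.3 FPKM, whose libraries did not overlap, then Tubb6 at 48.2 FPKM, which overlapped with Vim and with Tuba1a at 47.4 FPKM, and Tubb2b at 26.2 FPKM. After 2 weeks Tubb2a came second at 143 FPKM and Actg1 came behind Tuba1c and Tuba1b at 72.5 FPKM. At that time Vim, Tuba1a, Tubb2b and Tubb6, between 26.7 and 33.4 FPKM, overlapped with one another. After 5 weeks Tuba1b, Actg1, Tuba1c and Tubb2a lay between 64.7 and 74.2 FPKM and overlapped again.

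Against TAA, 8 of the 10 genes had a log2 change below 0 at 2 weeks, with a median of -0.26 beside -0.029 for all tested genes and a range of -0.75 to 0.38. The edgeR test called 1 of the 10 lower, Actg1, and 0 higher, where 1.34% of all genes were called lower and 1.98% higher. DESeq2 called 1 (12% of all genes with an adjusted p), limma on log2(FPKM + 1) called 5 (13.1% of all), and 2 had an unadjusted p under 0.05 (23.4% of all), in either direction. For 5 of the 10 all 2-week libraries lay below all TAA libraries, as they did for 16.3% of all genes. These values chose the genes, so nothing is read from the counts.

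At 5 weeks all 10 genes were below 0 against TAA, with a median of -0.93 beside 0.010 for all genes and a range of -1.22 to -0.53. Actg1, Tuba1a and Tubb6 were called lower, where 0.604% of all genes were called lower and 0.686% higher, and 8 of 10 did not overlap with TAA on the lower side, against 13.4% of all genes. DESeq2 called 9 (7.73% of all genes, in either direction) and limma 10 (6.37%), and all 10 had an unadjusted p under 0.05 (19.2%). Between 5 weeks and 2 weeks all 10 were below 0 as well, with a median of -0.64 and a range of -1.32 to -0.25. None was called by edgeR, which called 0.00679% of all genes lower and 0.0136% higher, while 7 had an unadjusted p under 0.05 (23.2% of all genes), DESeq2 called 6 (5.95%) and limma 0 (0.007%). In that comparison 8 of 10 did not overlap, against 10.2% of all genes. The comparisons share libraries, the TAA group in the first pair and an rhCYGB group in each other pair. As at 2 weeks, these values chose the genes, so nothing is read from the counts in this paragraph either.

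**Figure D3:**
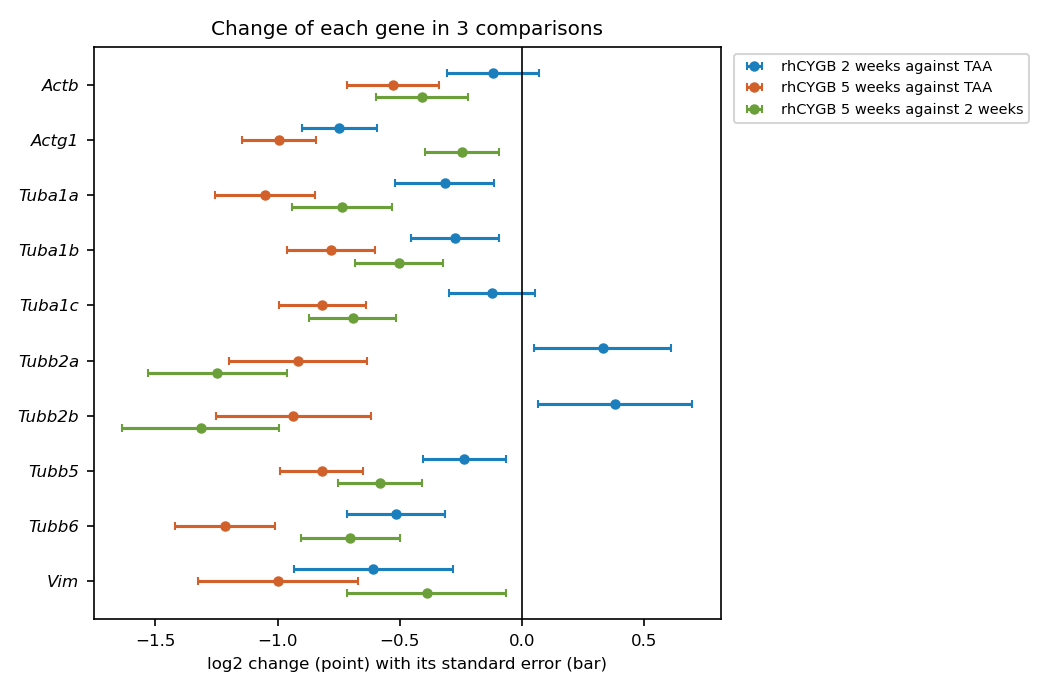
Log2 change of each gene with its standard error in the 3 comparisons, from 1 fit over 9 libraries. At 2 weeks the points run from -0.75 (Actg1) to 0.38 (Tubb2b, which was 0.035 with library totals alone, as Tubb2a went from 0.33 to -0.012), and at 5 weeks all lie between -1.22 and -0.53.

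Single libraries decided many of these values. Replicate 27 was the highest of the 5-week libraries for 9 of the 10 genes, Vim being the exception. Without it the median 5-week change was -1.11 against TAA, and 8 of the 10 genes were called there, where 1.6% of all genes were called (240), and 8 between the courses, where 12.6% of all genes were called (1889, against 3 with all libraries). The 5-week calls were 1 without replicate 12, Actg1, and 0 without any 1 of replicates 13, 14, 17, 18, 19, 23 and 28, fits in which 0 to 5 of all genes were called. In the fit of only the TAA and 5-week libraries 0 of the 10 were called and 1 of all genes, so the calls of Actg1, Tuba1a and Tubb6 were lost there. With replicates 17, 18 and 23 left out together 0 of the 10 were called in each comparison, and 12, 7 and 5 of all genes. At 2 weeks Actg1 was called without replicate 12, 23 or 27 and not without any 1 of the other 6 libraries. The medians kept their sign in each of these 9 fits, at -0.34 to -0.15 at 2 weeks and -1.11 to -0.73 at 5 weeks.

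To show the shared profile, each gene's log2(CPM + 1) was centred on its own mean over the 9 libraries. The mean of the 10 centred values was 0.18, 0.33 and 0.63 in TAA, 0.25, 0.20 and 0.037 after 2 weeks, and -0.85, -0.15 and -0.62 after 5 weeks. Replicate 14 was the highest library and replicate 23 the lowest, and all 10 genes were below their own mean in replicates 23 and 28. Replicates 17 and 19 were the most mixed, with Tubb2b at 0.93 and Actg1 at -0.20 in replicate 17.

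**Figure D4:**
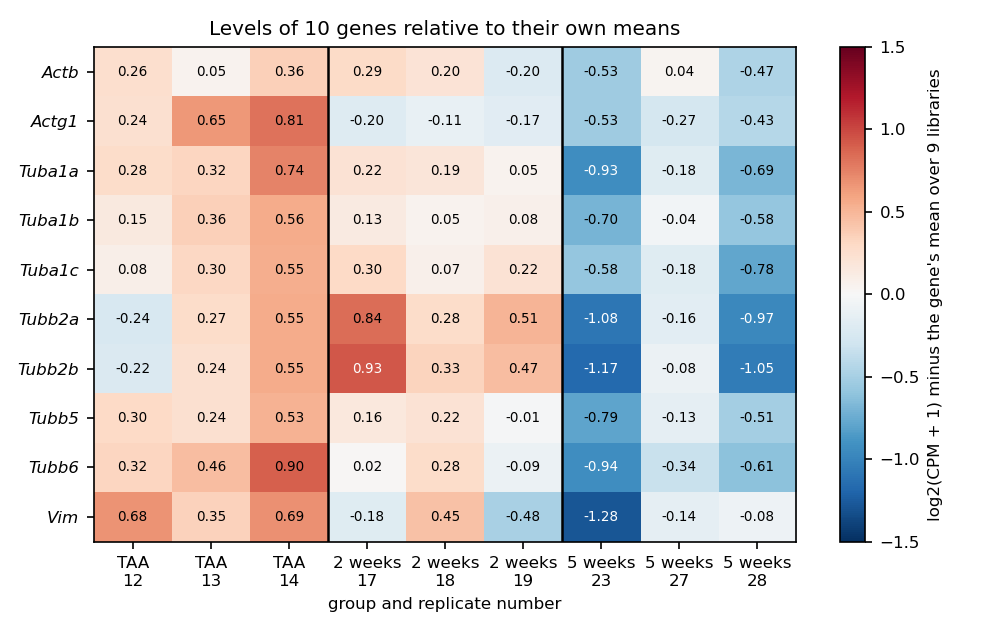
Centred log2(CPM + 1) of each gene (rows) in each library (columns, by group and replicate number), in which 0 is the gene's mean over 9 libraries, red is above it and blue below. Replicates 23 and 28 are blue in all 10 rows, and in replicate 17 Tubb2a and Tubb2b stand at 0.84 and 0.93 while Actg1 and Vim are at -0.20 and -0.18.

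Likeness of these profiles was measured as the root mean square difference of centred values over the 9 libraries, among 12404 genes that averaged 1 CPM or more, where 0 is an identical profile. Tubb2a and Tubb2b were nearest to each other, at 0.061, and their nearest genes outside the 10 were far more distant, Chka (choline kinase) at 0.26 for Tubb2a and Sfn at 0.27 for Tubb2b. Reads from stretches that Tubb2a and Tubb2b share can be given to either gene, and how far that makes their profiles alike was not tested. The same holds among the alpha tubulins. Tuba1a and Tuba1b each had Tubb5 as nearest, at 0.11 and 0.10, and Tubb6 had Tuba1a, at 0.13. Outside the 10, the nearest genes were Ube2c, which marks mitotic proteins for breakdown, for Tuba1a (0.12) and Tubb6 (0.15), the actin regulator Vasp for Tuba1b (0.11), N4bp3 for Tuba1c (0.10) and the actin-binding protein gene Cotl1 for Tubb5 (0.093).

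Tuba1c and Tubb5 too were nearer to a gene outside the 10 than to any of the 10. Their nearest member, Tuba1b, ranked 2nd for Tuba1c (0.12) and 4th for Tubb5 (0.10). The actins and Vim had many more such genes. The nearest member ranked 95th for Actb (Tubb5, 0.16) and 84th for Actg1 (Tubb6, 0.23). Trp53, the gene of the p53 protein, was nearest to Actb at 0.083, and Usp43 to Actg1 at 0.13. Vim was nearest to the collagen gene Col16a1, at 0.087, which stood at 15.6, 11.9 and 15.8 CPM in TAA, 8.91, 14.2 and 7.52 CPM after 2 weeks and 3.97, 9.27 and 10.0 CPM after 5 weeks. The nearest of the 10 genes to Vim, Tubb6, ranked only 185th, at 0.31. The median over all genes lay between 0.39 and 0.71 for the 10 genes. These are descriptions over 9 libraries that share group and scaling.

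Beyond the 10 genes, 11 lists of 190 symbols covered the rest of the cytoskeleton, of which 185 genes were tested. At 2 weeks 9 of these fell (4.86%), 1 rose and 175 were not called. Their median log2 change was -0.062 beside -0.029 for all genes. At 5 weeks 5 fell (2.7%), 0 rose and 180 were not called, with a median of -0.12 beside 0.010. Among all genes 1.34% and 0.604% were called lower and 1.98% and 0.686% higher. The calls in each list below stand beside those shares. In either direction 46 and 55 genes had an unadjusted p under 0.05, beside 23.4% and 19.2% of all genes, the shares against which the counts of such genes in each list below stand. DESeq2 called 21 and 23 (12% and 7.73% of all genes) and limma on log2(FPKM + 1) 40 and 34 (13.1% and 6.37%). Between 5 and 2 weeks 0 were called by edgeR, 10 by DESeq2 (5.95% of all genes) and 0 by limma, with 49 at an unadjusted p under 0.05, beside 23.2% of all genes. These list calls rested on single libraries: at 2 weeks 18 were made without replicate 23, 13 without 27, 8 without 19, 4 without 28 and 0 without any 1 of 12, 13, 14, 17 and 18, and at 5 weeks 5 without 27 and 0 in the other 8 fits. With replicates 17, 18 and 23 all left out there was 0 in each comparison. In fits of only the groups compared 17, 0 and 0 list genes were called, and 1023, 1 and 0 of all genes. All list calls at 5 weeks given below were therefore lost there.

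The genes that crosslink actin filaments, anchor them to membranes or pull on them held most calls. Of 28 tested, 6 fell at 2 weeks and 22 were not called, and 3 fell at 5 weeks and 25 were not called. Their medians were -0.25 and -0.30, and among all genes 1.34% and 0.604% were called lower. Here and in the lists below, falls are log2 changes ± SE and levels are mean CPM ± SD (n = 3). The product of the tropomyosin gene Tpm4 lies along actin filaments. Tpm4 fell by 0.77 ± 0.13 at 2 weeks (edgeR, adjusted p = 0.0255), from 73.1 ± 5.92 to 43.0 ± 3.05 CPM. At 5 weeks it fell by 0.98 ± 0.13 (edgeR, adjusted p = 0.0361), to 37.1 ± 5.13 CPM. Iqgap1, a scaffold that ties actin to signalling proteins, fell by 0.61 ± 0.11 (adjusted p = 0.0262) and 0.56 ± 0.11 (adjusted p = 0.0472). The actin crosslinker Actn1 fell by 0.59 ± 0.11 at 2 weeks (adjusted p = 0.0276), and Iqgap3 by 0.99 ± 0.17 (adjusted p = 0.0255), from 10.9 ± 0.20 to 5.47 ± 0.97 CPM. Filamin A, encoded by Flna, links filaments into networks and fell by 1.12 ± 0.20 at 5 weeks (adjusted p = 0.0406), from 85.6 ± 4.598 to 39.3 ± 8.21 CPM. The other calls at 2 weeks were Anln and Msn, both lower. Fscn1, which bundles filaments, had the lowest p between the courses and stood at 3.67 ± 0.90 CPM at 5 weeks against 6.74 ± 0.98 CPM at 2 weeks (log2 change -0.88 ± 0.22, adjusted p = 0.151).

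Of 3 tested muscle actins 1 fell at each time. It was Acta2, which activated stellate cells and smooth muscle use to contract, by 2.15 ± 0.42 at 2 weeks (edgeR, adjusted p = 0.0327) and by 2.93 ± 0.43 at 5 weeks (adjusted p = 0.0361), on the log2 scale. Its mean was 52.8 ± 21.3 CPM in TAA, 11.9 ± 5.45 CPM after 2 weeks and 6.95 ± 2.71 CPM after 5 weeks, while Actb and Actg1 at 5 weeks differed from TAA by 1.44-fold and 1.99-fold.

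Of 9 other tubulin genes tested, Tubb3 fell and 8 were not called, at both times. Tubb3, the class III beta tubulin best known from neurons, stood at 2.31 ± 0.40 CPM in TAA, 0.43 ± 0.15 CPM after 2 weeks and 0.52 ± 0.19 CPM after 5 weeks, and fell by 2.43 ± 0.36 (edgeR, adjusted p = 0.0235) and 2.16 ± 0.35 (adjusted p = 0.0361). The medians of this list were 0.089 and -0.43. The gamma tubulin Tubg1, part of the template from which microtubules grow, had the lowest p between the courses and stood at 37.0 ± 6.497 CPM after 5 weeks and 52.0 ± 3.82 CPM after 2 weeks (log2 change -0.49 ± 0.14, adjusted p = 0.169).

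Genes that fold tubulin or control its level gave no call in 22 tested, at either time, with medians of 0.14 and -0.005, and 4 and 1 genes had an unadjusted p under 0.05 while DESeq2 called 2 and 0 and limma 2 and 1. The prefoldin subunit Vbp1 had the lowest p at 2 weeks, at 13.7 ± 2.14 CPM against 19.2 ± 1.72 CPM in TAA (edgeR, adjusted p = 0.0982). At 5 weeks it was Tbcc, a tubulin folding cofactor, at 8.93 ± 1.63 against 12.4 ± 2.15 CPM (adjusted p = 0.199), and between the courses Pfdn6, at 27.2 ± 6.16 against 42.2 ± 8.26 CPM (adjusted p = 0.175).

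Of 13 enzymes that modify tubulin, 1 rose at 2 weeks and 12 were not called. Atat1, which acetylates alpha tubulin, rose 1.70-fold (log2 change 0.77 ± 0.16, edgeR, adjusted p = 0.0396), from 8.17 ± 1.58 to 13.9 ± 1.72 CPM. DESeq2 called 1 gene of this list as well, but 0 were called with upper quartile scaling and 0 by limma on log2(FPKM + 1). At 5 weeks edgeR called 0, DESeq2 1 and limma 1, with 2 at an unadjusted p under 0.05. The lowest p was that of Vash1, an enzyme that removes the last tyrosine of alpha tubulin, at 2.14 ± 0.22 against 3.92 ± 0.45 CPM (adjusted p = 0.0582), and it was also lowest between the courses, against 3.003 ± 0.44 CPM (adjusted p = 0.191).

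Of 26 microtubule-binding proteins and motors 0 were called by edgeR at either time, with 9 and 7 at an unadjusted p under 0.05 with 3 and 2 called by DESeq2 and 6 and 2 by limma. Stmn1, whose product binds free tubulin and keeps it out of microtubules, had the lowest p at both times and stood at 75.3 ± 5.58 CPM in TAA, 53.2 ± 6.32 CPM after 2 weeks (adjusted p = 0.0680) and 47.8 ± 5.06 CPM after 5 weeks (adjusted p = 0.0505). Between the courses the lowest p was that of Tppp3, at 0.44 ± 0.21 CPM at 5 weeks against 1.53 ± 0.44 CPM (adjusted p = 0.138).

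The remaining actin lists gave 0 calls by edgeR at either time. Of 18 genes for monomer binding, severing and capping, 1 and 4 had an unadjusted p under 0.05 and DESeq2 called 0 and 0, limma 2 and 3. Svil had the lowest p at 2 weeks (18.8 ± 1.011 against 29.1 ± 5.35 CPM, edgeR, adjusted p = 0.172), Twf2 at 5 weeks (8.76 ± 2.14 against 12.4 ± 1.38 CPM, adjusted p = 0.190) and the capping protein gene Capzb between the courses (143 ± 32.4 against 192 ± 18.8 CPM, adjusted p = 0.193). Of 21 nucleation genes 4 and 7 had an unadjusted p under 0.05 and DESeq2 called 2 and 2, limma 5 and 1. Here the formin Diaph3 led at 2 weeks (0.52 ± 0.20 against 1.60 ± 0.38 CPM, adjusted p = 0.0693), Fmnl3 at 5 weeks (6.39 ± 2.18 against 11.95 ± 1.67 CPM, adjusted p = 0.116) and Diaph2 between the courses (9.08 ± 2.08 against 5.49 ± 0.99 CPM, adjusted p = 0.164).

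Serum response factor (SRF) drives many actin genes. Of 14 tested genes made up of SRF and its targets outside muscle, edgeR called 0 at either time, while 5 and 7 had an unadjusted p under 0.05 and DESeq2 called 2 and 2, limma 7 and 3. Their medians were -0.27 and -0.38. Cyr61 stood at 9.24 ± 2.14 CPM after 2 weeks against 21.2 ± 11.6 CPM in TAA (edgeR, adjusted p = 0.0750), Filip1l at 7.24 ± 2.01 CPM after 5 weeks against 12.5 ± 1.16 CPM (adjusted p = 0.135), and Srf itself at 12.5 ± 1.47 CPM at 5 weeks against 17.1 ± 1.54 CPM at 2 weeks (adjusted p = 0.175).

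Among 16 other intermediate filament and linker genes Lmnb1 was called, a nuclear lamin, which fell by 0.98 ± 0.19 at 2 weeks (edgeR, adjusted p = 0.0336), from 10.0 ± 0.74 to 5.05 ± 1.08 CPM. At 5 weeks 0 were called by edgeR, 4 had an unadjusted p under 0.05 DESeq2 called 3 and limma 4. Nes, the nestin gene, had the lowest p, at 3.08 ± 1.146 CPM against 7.76 ± 1.04 CPM in TAA (adjusted p = 0.0578). Between the courses it was Des, encoding the desmin of stellate and muscle cells, at 5.69 ± 1.67 CPM against 13.3 ± 3.54 CPM (adjusted p = 0.158).

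Markers of several cell types differed between the groups beside these genes. The 14 stellate cell and fibroblast markers summed to 1418 to 2126 CPM in TAA, 556 to 969 CPM after 2 weeks and 411 to 891 CPM after 5 weeks. Of these, 13 of 14 had a log2 change below 0 at each time, with 3 and 2 called lower. Among all tested genes, 52.91% and 48.65% were below 0, and 1.34% and 0.604% were called lower. The marker counts below stand beside the same shares. The 12 markers of dividing cells summed to 285 to 321, 142 to 199 and 176 to 184 CPM. Of the 12, 7 and 4 were called lower, and between the courses their median log2 change was 0.056. With 1 library left out, the calls over all genes fell to as few as 1 at 2 weeks and 0 at 5 weeks. The marker calls therefore did not hold in every fit.

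Macrophage and monocyte markers summed to 582 to 649 CPM in TAA, 471 to 687 CPM after 2 weeks and 370 to 480 CPM after 5 weeks. Of these, 10 of 13 had a change below 0 at each time, with 2 and 1 called lower and 1 and 0 called higher. Cholangiocyte markers summed to 367 to 593, 296 to 410 and 130 to 396 CPM, with 7 and 9 of 9 tested genes below 0 and the lowest sum in replicate 23. Mesothelial markers summed to 12.4 to 31.3, 10.8 to 25.7 and 5.09 to 13.3 CPM, with Msln and Lrrn4 at 0 in at least 1 library, endothelial markers to 245 to 268, 244 to 273 and 193 to 243 CPM, and neutrophil markers to 15.5 to 67.4, 18.03 to 46.3 and 14.6 to 20.4 CPM. T and NK cell markers summed to 4.33 to 6.94, 12.2 to 19.5 and 4.80 to 15.3 CPM. Of 11 tested, 0 had a change below 0 at either time, and 2 and 0 were called higher. The B and plasma cell markers summed to 271 to 316, 238 to 312 and 190 to 282 CPM, and the red blood cell markers to 225 to 352, 349 to 435 and 196 to 225 CPM. Of 4 tested red blood cell markers 1 and 2 had a change below 0, and 1 and 0 were called higher. Of 12 hepatocyte markers 1 and 2 had a change below 0, and 1 and 1 were called higher. The median log2 change of the hepatocyte markers was 0.57 and 0.28, beside -0.029 and 0.010 for all genes. Among all genes 1.98% and 0.686% were called higher. Skeletal and heart muscle markers stayed at or below 4.33 CPM, with Myh1 at 0 in all libraries, and nerve and glia markers at or below 3.95 CPM, with Snap25 and Nefl at 0 in all. The part of any of these cell types in the levels of the 10 genes was not tested.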

How the data were processed

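Polyadenylated RNA of 9 liver samples was sequenced from both ends with a strand-marking kit, per the labels' protocols. The tools HISAT2 2.1.0, StringTie 1.3.4d and FastQC 0.11.7 and the build mm10 are those listed in the submitters' processing notes, and the step that made counts is not given in the sources used here. The deposited values are estimated counts of reads per gene, whole numbers per the file headers and values, and FPKM made by the authors, which correct for depth and transcript length.

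Genes were filtered by filterByExpr (minimum count 10, minimum total 15), given TMM factors and compared by the quasi-likelihood F test of edgeR 4.0.16 (R 4.3.3), with 1 fit over 9 libraries and 3 groups (6 residual degrees of freedom), Benjamini-Hochberg adjustment over 14731 genes, a gene being called where the adjusted p was below 0.05. The standard error (SE) was taken as the ratio of the change's size to the root of F. Alternatives used DESeq2 1.42.0, limma 3.58.1 on log2(FPKM + 1), other scalings and filters, a trend over transcript length removed, and libraries left out, 18 in all. With 3 libraries per group the depth, 55655727 reads or more, limits precision less than the spread between libraries, a common biological coefficient of variation of 24.9%.

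The 10 genes and all lists were chosen with earlier results of these data known. From each cytoskeleton list and comparison the text names up to 4 called genes by adjusted p, or the gene with the lowest p; Anln and Msn are named beyond that rule. The result of 1 list is not reported here. Whether counting used strand is not given in the sources used here. Coordinates and sequences follow GENCODE M21 and RefSeq on GRCm38, by a match of symbol and transcript for 10 of 10 genes.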

Additional observations from a re-analysis of the deposited data

How the results depend on the processing

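No paired analysis was possible because the groups share no replicate number. The number of genes called was 488, 190 and 3 (2 weeks against TAA, 5 weeks against TAA, 5 against 2 weeks). It was 1722 and 504 in the first pair with library totals alone, 1670, 1132 and 770 with DESeq2, 1869, 910 and 1 with limma on log2(FPKM + 1), 1023, 1 and 0 with only the groups compared, and 836, 760 and 7 with the length trend removed. Against TAA at 5 weeks it was 77 with upper quartile scaling and 105 without a filter. It was 12, 7 and 5 without replicates 17, 18 and 23. Leaving out 1 library gave 1 to 1095, 0 to 240 and 1 to 1889. At 2 weeks the calls split into 291 higher and 197 lower, 147 and 179 with upper quartile scaling, 110 and 1612 with library totals, and 134 and 1735 with limma. At 5 weeks they split into 101 and 89, 38 and 466 with library totals, 67 and 843 with limma, and 542 and 218 with the length trend removed. The 10 genes' median change was -0.59, -1.17 and -0.53 with library totals, beside -0.36, -0.21 and 0.099 for all tested genes. On that scale 5, 8 and 0 of the 10 were called, beside 1722, 504 and 3 of all 14731 genes. Limma called 5, 10 and 0 of the 10, beside 1869, 910 and 1 of all 14290 genes in that fit. With only the groups compared 1, 0 and 0 of the 10 were called, beside 1023, 1 and 0 of all genes. Of 540 recomputed changes of the 10 genes, 517 moved by less than the spread between libraries and 23 by more, many of them with library totals or log2(FPKM + 1). Counts of called genes moved more often. Of 54 recomputed counts over all genes 43, and of 594 recomputed counts in the cytoskeleton lists 149, lay outside the margin set for an unchanged count. The cause of these differences was not tested.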
